A study of Mus musculus with 5 samples.

Results

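The amygdalostriatal Rarb neurons are inhibitory nuclei with a high level of Rarb, the gene of retinoic acid receptor beta. They were taken from nuclei of the mouse central amygdala (CeA) sequenced by the droplet method, in which each nucleus carries a barcode and each RNA molecule a unique molecular identifier (UMI). A nucleus was kept with 500 to 8000 genes and under 0.8% of its UMIs from mitochondrial genes, and was called inhibitory with at least 1 UMI of Gad1 or Gad2, the enzymes that make GABA. From these the members were chosen by the measured levels of 3 genes: a member had at least 5 Rarb UMIs per 10000 of its own UMIs, under 5 of Pde1c and under 8 of Foxp2. This gave 902 members of 6020 inhibitory nuclei (14.98%), out of 7161 nuclei kept and 23839 barcodes. Pde1c and Foxp2 are markers that the study ties to other neighbours of the CeA, so these limits keep those nuclei out.

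The 5 libraries came from mice labelled C57BL6 (C57BL/6NRj for the wild types in the study's methods), each from the pooled tissue of 2 brains, a male and a female. Fed replicates 1 and 2 were from naive mice of 8 weeks. Fed replicate 3 was from Htr2a-Cre mice of 12 weeks that carried the Cre-dependent virus AAV-DIO-mCherry, in which Cre follows the serotonin receptor gene Htr2a. Fasted replicates 1 and 2 were from mice of 8 weeks without food for 20 and 21 hours. By the study's numbers for its libraries, taken here as the replicate numbers, replicates 1 were prepared together, as were replicates 2. Fed replicate 3 was then prepared apart, so its genotype, virus, age and preparation cannot be told apart. The question put to the feeding groups was how a fast changes transcripts in each kind of neuron.

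Retinoic acid, made from vitamin A, binds receptors such as RARβ, which sit on DNA with an RXR partner and switch target genes on. Cyp26 enzymes break retinoic acid down. In the striatum Rarb is known as a gene of projection neurons. These neurons fall into a direct pathway type, which carries the dopamine receptor Drd1 with the peptides dynorphin and substance P, and an indirect pathway type, which carries the dopamine receptor Drd2, the adenosine receptor Adora2a and the enkephalin gene Penk. The amygdalostriatal area is a strip of striatum-like tissue beside the CeA. The nuclei carry no position, and the region in their name was not measured here.

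Rarb lies on chromosome 14 at 5650540 to 6041094 of GRCm39, on the plus strand of that annotation. The promoter that RefSeq gives for it on GRCm38.p6, chr14:16575427-16575726 on the minus strand, is shown because it holds a direct repeat of the letters GTTCA, the kind of arrangement that retinoic acid receptors are known to bind. The capitals mark the stretch that matched GTTCA, then 6 bases of any kind, then GTTCA, and it ended 36 bases before the annotated start.
Rarb promoter: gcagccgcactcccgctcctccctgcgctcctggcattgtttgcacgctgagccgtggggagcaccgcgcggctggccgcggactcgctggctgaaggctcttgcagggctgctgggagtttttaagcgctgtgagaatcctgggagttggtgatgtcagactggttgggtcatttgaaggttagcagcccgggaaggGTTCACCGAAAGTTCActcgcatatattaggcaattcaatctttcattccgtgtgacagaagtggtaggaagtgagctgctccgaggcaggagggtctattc
Searched on both strands, this motif occurred in 25 of 32851 RefSeq promoters of 300 bases (0.0761%). Of 20 retinoid genes listed, which leave out Rarb, 16 had a promoter in the table and 1 matched, that of Cyp26a1. The promoter of Cyp26b1 had no match. Adora2a and Penk had no entry. The match describes the letters, and no binding was measured.

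Of the inhibitory nuclei of fed replicates 1, 2 and 3 the members made up 14.96%, 14.3% and 17.9%, and of those of the fasted libraries 18.1% and 10.1%. The fed libraries gave 15.7% ± 1.92 (SD, n = 3) and the fasted libraries had a mean of 14.1%, with the lowest and the highest share both among the fasted libraries. The exact permutation test of the difference gave p = 0.8 (two-sided), where 3 libraries against 2 cannot go below 0.2. The members numbered 140, 123 and 236 in the fed libraries and 247 and 156 in the fasted ones. Their median UMIs were 8448.5, 16745 and 13486 in the fed and 6949 and 17276.5 in the fasted libraries, so that both libraries numbered 1 were the shallower. No member shared its barcode with a member of another library, and 3 barcodes were shared among the kept nuclei. Scrublet called 12 members doublets (1.33%), against 72 of all kept nuclei (1.01%), and they were kept. The mitochondrial share stood apart by feeding, with medians over members of 0.123%, 0.0534% and 0.0515% in the fed and 0.306% and 0.169% in the fasted libraries.

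Rarb chose the members, so its level is a description. It ran from 5.01 to 42.5 UMIs per 10000 over the members with a median of 11.03. Just inside the limit lay 86 members with 5 to 6, and just outside 94 inhibitory nuclei with 4 to 5. Drd2 stood at 126 CPM (UMIs of the gene in 1e+06 of the summed UMIs) inside and 114 outside, Adora2a at 58.1 and 41.2, and Calcrl at 83.4 and 40.5. The 816 members with 6 or more held 208 CPM of Drd2 and 86.7 of Adora2a.

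Most members carried markers of the indirect pathway, and few carried Drd1. Of the 902 members, 567 had a UMI of Drd2 and none of Drd1, 47 had Drd1 and no Drd2, 30 had both, and 258 had neither. The label names Drd1 and Drd2, but the nuclei did not divide evenly between them. Among nuclei with 1 receptor alone, those with Drd2 made up 94.1%, 86.7% and 93.0% in the fed libraries and 98.1% and 86.4% in the fasted libraries. The fed libraries gave 91.3% ± 4.02 (SD, n = 3) and the fasted libraries a mean of 92.2%, with p = 1 by the exact permutation test. Nuclei with neither receptor were shallower, at a median of 8668.5 UMIs, than those with Drd2 (11916) or Drd1 (17035).

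**Figure D1:**
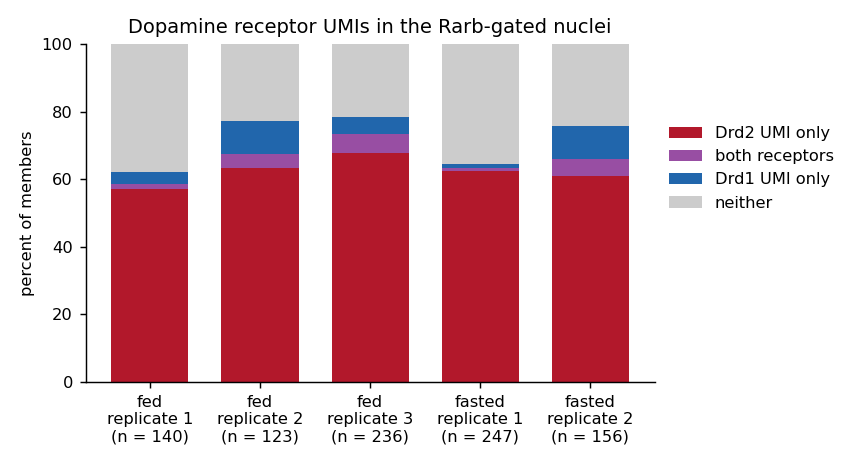
Percent of members in each library (bars) with a UMI of Drd2 alone, of Drd1 alone, of both or of neither. The Drd2 class is the largest in every library, from 57.1% in fed replicate 1 to 67.8% in fed replicate 3, and the Drd1 class takes 1.21% to 9.76%.

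Since a deeper nucleus shows more genes, each nucleus with at least 4000 UMIs was thinned to 4000, which left out 30 members. Drd2 was then found in 46.2% of 872 members (exact 95% interval 42.9% to 49.6%, counting error only) and in 66.2% of all members before thinning. In the Foxp2 gate, the lowest of the gates, the share was 1.39% of 359 nuclei (0.454% to 3.22%), with 3.16% before thinning. It was 8.35% in the remaining nuclei and 9.27% in thinned nuclei with no Gad1 or Gad2 UMI. The median depth of members was 11220.5 UMIs and that of the Foxp2 gate 11570.5. Adora2a was found in 27.9% of the thinned members against 2.51% of the Foxp2 gate, and Penk in 51.3% against 36.8%. In the 375 thinned nuclei of the Pde1c gate the shares were 39.5% for Drd2, 12.8% for Adora2a and 54.4% for Penk. Within the members, thinned Adora2a was found in 34.6% of the Drd2 nuclei, 15.2% of those with neither receptor and 8.51% of the 47 Drd1 nuclei. Drd1 was found in 3.33% of the thinned members, 7.2% of the Pde1c gate, 7.52% of the Foxp2 gate and 1.65% of the remaining nuclei. Among 604 thinned nuclei with no Gad1 or Gad2 UMI the share was 3.15%. Over all libraries together, the Drd1 share of members was thus near that of the nuclei with no Gad1 or Gad2 UMI and above that of the remaining nuclei. The part of free RNA in the Drd1 class was not tested.

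Nuclei past the same Rarb limit that fell in another gate had other receptor counts. Of 153 nuclei with at least 5 Rarb UMIs per 10000 in the Foxp2 gate, 48 had Drd1 alone and 6 had Drd2 alone. In the Pde1c gate, 33 of 177 such nuclei had Drd1 alone and 95 had Drd2 alone. Nuclei past the Rarb limit with Drd1 alone thus lay both inside the members, where there were 47, and outside them, as a result of the limits on Pde1c and Foxp2.

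To show what the Rarb neurons express beyond their gate genes, UMIs were summed per library and set against 3 other sets of inhibitory nuclei from the same libraries. These were 407 nuclei of the Pde1c gate (at least 5 per 10000), 380 of the Foxp2 gate (at least 8), and 4317 remaining nuclei under all 3 limits. Rarb, Pde1c, Foxp2, Gad1, Gad2 and mitochondrial genes took no part in these tests. Of 10288 genes tested by edgeR, 1403 were higher (13.6%) and 1352 lower (13.1%) than in the remaining nuclei. Against the Foxp2 gate 1322 were higher (12.8%) and 1124 lower (10.9%), and against the Pde1c gate 674 (6.55%) and 708 (6.88%). The Pde1c gate was thus the nearest of the 3 by this count.

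Drd2 (chromosome 9, 49251654 to 49319477 in GRCm39) codes for the inhibitory dopamine receptor. The members held 208, 192 and 210 CPM of Drd2 in the fed libraries and 241 and 165 in the fasted libraries, 203 ± 27.7 (SD, n = 5). The remaining nuclei held 28.2 ± 4.56 CPM and the Foxp2 gate 5.21 ± 2.61, and neither overlapped the members in any library. The log2 difference of the members was 2.94 ± 0.08 (SE, adjusted p = 5.68e-20) from the remaining nuclei and 5.57 ± 0.19 (adjusted p = 6.51e-18) from the Foxp2 gate. From the Pde1c gate, with 191 ± 50.3 CPM, it was 0.10 ± 0.09 (adjusted p = 0.541), and the libraries overlapped.

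Adora2a (chromosome 10, 75152560 to 75170628) codes for the adenosine receptor that in indirect pathway neurons works against Drd2. The members held 74.4, 73.6 and 112 CPM in the fed libraries and 67.6 and 71.8 in the fasted libraries, 79.8 ± 18.0 (SD, n = 5). The Pde1c gate held 42.4 ± 21.3 CPM, the Foxp2 gate 6.25 ± 3.39 and the remaining nuclei 8.79 ± 3.04. The members were higher than each of them, by a log2 difference of 1.01 ± 0.15 (SE, adjusted p = 1.85e-05), 4.12 ± 0.25 (adjusted p = 5.21e-13) and 3.31 ± 0.12 (adjusted p = 6.87e-17). Against the Pde1c gate Adora2a thus passed the test, and Drd2 did not.

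Penk (chromosome 4, 4132722 to 4141856), which codes for the enkephalin precursor, stood at 250 ± 34.1 CPM (SD, n = 5). It was higher than in the remaining nuclei (89.5 ± 11.2, log2 difference 1.58 ± 0.08, adjusted p = 1.33e-14) and lower than in the Pde1c gate (297 ± 59.5, -0.26 ± 0.08, adjusted p = 0.0355). In all, 6 of 6 tested genes of the indirect pathway list were higher than in the remaining nuclei (median log2 difference 0.97, against -0.01 over all genes tested). Against the Pde1c gate 3 of the 6 were higher and 1 lower, and against the Foxp2 gate 3 were higher and 0 lower. Of 6 direct pathway genes 4 were lower than in the remaining nuclei, 3 than in the Pde1c gate and 1 than in the Foxp2 gate, and none was higher in any of the 3 comparisons. The shares of all genes called higher and lower were 6.55% and 6.88% against the Pde1c gate, 12.8% and 10.9% against the Foxp2 gate, and 13.6% and 13.1% against the remaining nuclei. Lower than in the remaining nuclei was Ebf1, a transcription factor, at 68.1 ± 28.8 CPM against 321 ± 32.9 (-2.11 ± 0.18, adjusted p = 5.68e-10).

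All 19 tested genes of the list of striatal projection neurons were higher than in the remaining nuclei, with a median log2 difference of 0.94, beside 13.6% of all genes. Foxp1, a transcription factor of these neurons, stood at 683 ± 61.5 CPM (SD, n = 5) against 196 ± 8.46 (1.90 ± 0.08, adjusted p = 4.72e-16). Phactr1, a regulator of actin and of protein phosphatase 1, stood at 7277 ± 627 CPM against 2159 ± 133 (1.85 ± 0.07, adjusted p = 4.41e-16). Ppp1r1b, which codes for the dopamine-regulated phosphatase inhibitor DARPP-32, was at 39.1 ± 7.14 CPM against 15.3 ± 4.14 (1.41 ± 0.13, adjusted p = 1.68e-09). Against the Pde1c gate the list ran the other way, with 2 genes higher, Foxp1 among them, and 8 lower, beside 6.55% and 6.88% of all genes. Phactr1 was among the lower ones (10786 ± 1081 CPM, -0.59 ± 0.07, adjusted p = 1.09e-06). Against the Foxp2 gate 13 were higher and 2 lower, beside 12.8% and 10.9%.

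**Figure D2:**
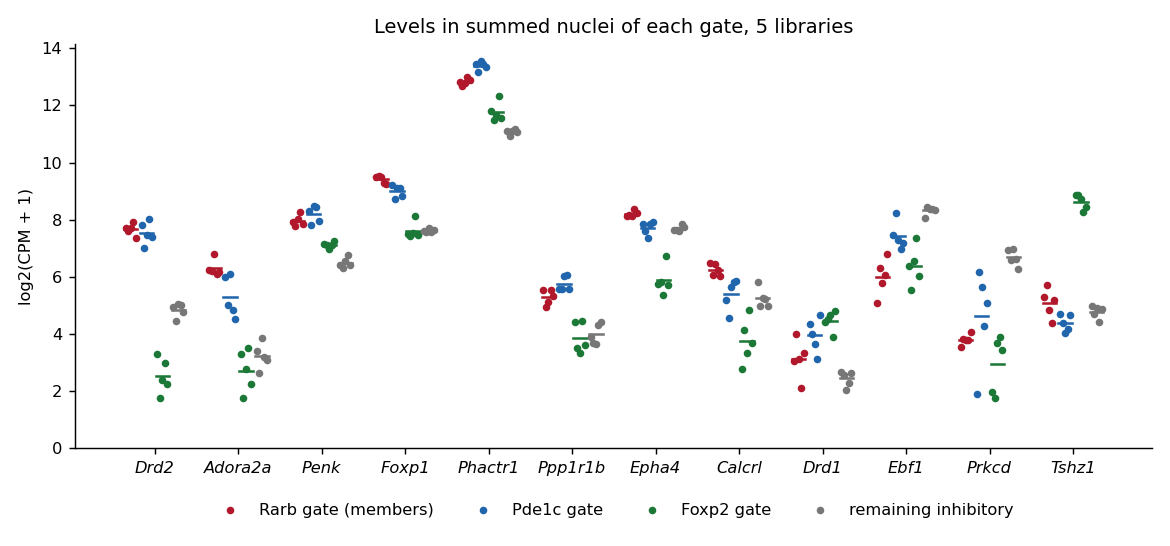
Level of 12 genes as log2(CPM + 1) in the members, the Pde1c gate, the Foxp2 gate and the remaining inhibitory nuclei, with 1 point for each of 5 libraries and a bar at their mean. Drd2 and Adora2a stand high in the members, at means of 203 and 79.8 CPM, and low in the Foxp2 gate, at 5.21 and 6.25, while Tshz1 is high in the Foxp2 gate alone (401 CPM).

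Most listed markers of the CeA were lower in the Rarb neurons than in the remaining nuclei. Of 8 tested genes of the CeA list, 7 were lower than in the remaining nuclei, which include the CeA neurons, and 1 was higher (median -1.55), beside 13.1% and 13.6% of all genes. Against the Pde1c gate 5 were lower and 1 higher (median -1.03), beside 6.88% and 6.55%. Against the Foxp2 gate the balance turned, with 1 lower and 2 higher (median 0.47), beside 10.9% and 12.8%. Prkcd, which codes for a protein kinase C of lateral CeA neurons, stood at 13.0 ± 1.82 CPM (SD, n = 5) against 103 ± 20.2 (-2.84 ± 0.20, adjusted p = 9.91e-12). Il1rapl2, a synaptic organizer, was at 59.7 ± 35.3 CPM against 414 ± 127 (-2.65 ± 0.27, adjusted p = 1.1e-08). The higher gene was Calcrl, part of the receptor for calcitonin gene-related peptide, at 89.1, 66.3 and 85.7 CPM in the fed and 74.3 and 64.5 in the fasted libraries against a mean of 38.0 ± 10.3 (1.14 ± 0.12, adjusted p = 2.12e-08). Every library of the members lay above every library of the remaining nuclei for this gene, whose highest was 55.4. Cdh9, which is outside the list and was chosen after its values were seen, marks the same capsular CeA neurons as Calcrl in the study. It was higher as well, at 237 ± 4.51 CPM against 94.6 ± 11.8 (1.43 ± 0.09, adjusted p = 3.75e-12). Whether members with Calcrl, Cdh9 and Drd2 are amygdalostriatal or capsular CeA neurons was not tested.

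Of the retinoid list, 9 genes were abundant enough to be tested. Against the remaining nuclei 1 was higher, Cyp26b1 (chromosome 6, 84548396 to 84570890), which codes for an enzyme that degrades retinoic acid, and 2 were lower, beside 13.6% and 13.1% of all genes. The members held 40.9, 45.6 and 35.1 CPM of Cyp26b1 in the fed libraries and 22.7 and 12.5 in the fasted libraries, against 16.1 ± 5.59 in the remaining nuclei (SD, n = 5, log2 difference 1.00 ± 0.14, adjusted p = 1.88e-06). The Pde1c gate held 5.11 ± 2.60 CPM (2.45 ± 0.28, adjusted p = 2.78e-07) and the Foxp2 gate 4.41 ± 3.11 (2.72 ± 0.29, adjusted p = 3.72e-08). The spread over the member libraries followed feeding, which is taken up with the fast. Dhrs3, which returns retinaldehyde to retinol, was lower than in the Pde1c gate, at 3.48 ± 1.47 CPM against 14.9 ± 3.64 (-1.93 ± 0.32, adjusted p = 6.81e-05).

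Against the Foxp2 gate the smallest adjusted p was that of Chst9, which codes for a sulfotransferase, at 12.5 ± 8.33 CPM (SD, n = 5) against 615 ± 221 (-5.50 ± 0.15, adjusted p = 4.28e-20). Tshz1, a zinc finger factor of intercalated cells, was at 34.5 ± 11.8 CPM (SD, n = 5) against 401 ± 72.8 (-3.52 ± 0.11, adjusted p = 2.34e-18). Erbb4, the neuregulin receptor, was at 362 ± 195 CPM against 6456 ± 1788 (-4.21 ± 0.17, adjusted p = 2.11e-16), and its usual ligand gene Nrg1 was higher, at 6604 ± 386 against 2743 ± 362 (1.31 ± 0.06, adjusted p = 2.63e-15). Nrg1 was also higher than in the Pde1c gate (3741 ± 499 CPM) and the remaining nuclei (2750 ± 164). Of 8 genes of the striatal patch list, 6 were lower and 1 higher than in the Foxp2 gate, and of 6 matrix genes 5 were higher, beside 10.9% and 12.8% of all genes lower and higher. Among the matrix genes was Epha4, an ephrin receptor of the matrix, at 294 ± 19.9 CPM against 61.0 ± 25.2 (2.45 ± 0.11, adjusted p = 8.51e-16). Against the remaining nuclei, 4 of 8 patch genes were higher and 2 lower (median 0.13), and 4 of 6 matrix genes were higher and 0 lower (median 0.42), beside 13.6% and 13.1%. Against the Pde1c gate 2 patch genes were higher and 2 lower, and 2 matrix genes were higher and 0 lower, beside 6.55% and 6.88%.

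Against the nearest set, the Pde1c gate, several genes with the smallest adjusted p were as follows. Trpm3, a cation channel, was at 1783 ± 288 CPM (SD, n = 5) against 819 ± 120 (1.10 ± 0.06, adjusted p = 5.21e-13). Grm8, a metabotropic glutamate receptor, was at 920 ± 81.6 CPM against 338 ± 38.5 (1.44 ± 0.09, adjusted p = 1.44e-11), and the adhesion gene Tenm2 at 2436 ± 418 against 910 ± 180 (1.39 ± 0.10, adjusted p = 1.68e-10). Lower were Rgs6, a brake on G protein signals (240 ± 35.0 against 649 ± 61.5 CPM, -1.45 ± 0.08, adjusted p = 5.21e-13), and the adhesion gene Cntnap2 (4557 ± 428 against 11104 ± 1259, -1.31 ± 0.07, adjusted p = 1.98e-12). Of 8 tested peptide genes 6 were lower and none was higher, beside 6.88% and 6.55% of all genes. Against the Foxp2 gate 3 were higher and 0 lower, beside 12.8% and 10.9% of all genes. Against the remaining nuclei 2 were higher and 3 lower, beside 13.6% and 13.1%. Pdyn, the dynorphin precursor, was at 7.19 ± 1.35 CPM against 41.5 ± 10.7 (-2.63 ± 0.19, adjusted p = 1.51e-10), and Tac1, the substance P precursor, at 3.84 ± 1.72 against 11.2 ± 7.35 (-1.60 ± 0.38, adjusted p = 0.00409), lower in 4 of 5 libraries.

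Of 14 tested genes of the list of opioid, cannabinoid and related receptors, 4 were higher and 2 lower than in the remaining nuclei, 4 and 4 than in the Pde1c gate, and 8 and 2 than in the Foxp2 gate, where the shares of all genes were 13.6% and 13.1%, 6.55% and 6.88%, and 12.8% and 10.9%. Htr4, a serotonin receptor that raises cyclic AMP, was at 124 ± 13.0 CPM (SD, n = 5). This was higher than in the remaining nuclei (78.2 ± 12.1, log2 difference 0.77 ± 0.11, adjusted p = 1.55e-06) and than in the Pde1c gate (60.2 ± 22.0, 1.21 ± 0.16, adjusted p = 2.19e-06). The cannabinoid receptor Cnr1 was lower than in both, at 30.2 ± 4.26 CPM against 86.5 ± 14.5 (-1.40 ± 0.11, adjusted p = 1.19e-10) and 65.4 ± 13.0 (-1.14 ± 0.15, adjusted p = 2.02e-06). Both genes were higher than in the Foxp2 gate, Htr4 by 0.54 ± 0.14 (adjusted p = 0.00557) and Cnr1 by 0.81 ± 0.20 (adjusted p = 0.00349). Of 32 glutamate and GABA receptor genes, 18 were higher and 10 lower than in the remaining nuclei, beside 13.6% and 13.1% of all genes. It was 12 and 10 against the Pde1c gate and 13 and 9 against the Foxp2 gate. Of 18 tested clock genes, 1 was higher and 5 were lower than in the Pde1c gate (median -0.03), beside 6.55% and 6.88% of all genes, and 7 were higher and 0 lower than in the Foxp2 gate, beside 12.8% and 10.9%. Against the remaining nuclei 12 were higher and 1 lower, such as Hlf, a clock output factor, at 79.5 ± 13.8 CPM against 35.5 ± 6.36 (1.24 ± 0.11, adjusted p = 9.74e-10).

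RNA of other cell types was also present. Summed over the members, the 6 oligodendrocyte markers gave 164, 156 and 199 CPM in the fed and 240 and 179 in the fasted libraries, mostly from Mbp, the myelin basic protein gene. Mbp was found in 32.5% of the thinned members, 32.0% of the Pde1c gate, 28.4% of the Foxp2 gate and 30.2% of the remaining nuclei. These shares were alike, and their source was not tested. The 6 astrocyte markers summed to 28.6, 9.205 and 39.0 CPM in the fed and 37.7 and 48.8 in the fasted libraries, led by Slc1a3, with Aqp4 at 2.53 ± 0.658 (SD, n = 5). The 5 markers of excitatory neurons summed to 1.77 ± 1.44 CPM, and 1 of them was at 0 in every library. Their part in the differences between sets was not tested.

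The Drd2 nuclei and the Drd1 nuclei among the members were then compared, as the 567 with Drd2 alone against the 47 with Drd1 alone, with Drd1, Drd2 and the gate genes left out of the test. The Drd1 side was thin, with 5, 12 and 12 nuclei in the fed and 3 and 15 in the fasted libraries, and its sums held from 25443 to 326493 UMIs. As little as 1 Drd1 UMI placed a nucleus there, and the Drd1 share of members was near that of nuclei with no Gad1 or Gad2 UMI, as given above. Of 6360 genes tested, 87 were higher (1.37%) and 101 lower (1.59%) in the Drd2 nuclei. Of 5 tested indirect pathway genes 4 were higher, and of 2 tested direct pathway genes 1 was lower. The summed level of the 8 interneuron markers was 0, 17.4 and 252 CPM in the fed and 0 and 309 in the fasted libraries of the Drd1 nuclei, against 16.7 ± 8.96 in the Drd2 nuclei (SD, n = 5), and its part in these differences was not tested.

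Adora2a stood at 93.1, 95.0 and 130 CPM in the Drd2 nuclei of the fed and 78.8 and 102 of the fasted libraries, and at 37.3, 8.70, 5.35, 0 and 18.4 in the Drd1 nuclei in the same order. The classes did not overlap, and the log2 difference was 2.98 ± 0.36 (SE, adjusted p = 8.52e-06). Penk was at 303 ± 39.1 CPM against 99.0 ± 39.1 (SD, n = 5, 1.52 ± 0.23, adjusted p = 0.000136), Grik3, a kainate receptor, at 402 ± 41.4 against 169 ± 89.0 (1.53 ± 0.23, adjusted p = 0.000119), and the transcription factor Sp9 was higher by 2.08. Prkd1, a kinase that diacylglycerol activates, was higher at 514 ± 70.0 against 118 ± 77.5 CPM (2.04 ± 0.23, adjusted p = 3.13e-06), as was Adk, which removes adenosine (510 ± 62.9 against 159 ± 98.9 CPM, 1.64 ± 0.21, adjusted p = 2.41e-05). Adk and Adora2a thus went together on the Drd2 side.

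On the Drd1 side Ebf1 stood at 93.3, 405 and 241 CPM in the fed and 786 and 217 in the fasted libraries, against 36.3 ± 23.4 in the Drd2 nuclei (SD, n = 5, log2 difference -2.93 ± 0.27, adjusted p = 1.5e-07). Ebf1 is needed for direct pathway neurons to mature, and the study also counts it among the markers of a medial CeA type. The remaining nuclei held 321 ± 32.9 CPM of it. Tafa1, a marker of that CeA type, was at 111 ± 109 CPM in the Drd1 nuclei against 15.2 ± 7.79 (-2.99 ± 0.29, adjusted p = 4.4e-07), and Il1rapl2 at 39.0 ± 12.5 against 21.1 ± 9.17 (-0.58 ± 0.36, adjusted p = 0.612). Of 3 tested genes of the CeA list, 1 was higher in the Drd2 nuclei and 1, Tafa1, was lower, beside 1.37% and 1.59% of all genes. Called CeA markers thus lay on both sides, and their part in these differences was not tested. Lingo2, a synaptic membrane protein, was at 3096 ± 781 CPM against 338 ± 152 in the Drd2 nuclei (-3.16 ± 0.19, adjusted p = 6.12e-11), and no library of either class overlapped the other. Rgs6 was at 644 ± 177 CPM against 132 ± 39.3 (-2.10 ± 0.18, adjusted p = 1.09e-07) and the muscarinic receptor Chrm3 at 434 ± 118 against 122 ± 41.6 (-1.75 ± 0.19, adjusted p = 2.09e-06). Of 32 glutamate and GABA receptor genes 2 were higher and 4 lower in the Drd2 nuclei, beside 1.37% and 1.59% of all genes. Grik3 was among the former and Grik2, also a kainate receptor, among the latter, at 918 ± 126 CPM against 2473 ± 606 (-1.31 ± 0.16, adjusted p = 7.04e-06).

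Of 18 tested striatal projection neuron genes, 3 were higher in the Drd2 nuclei and none was lower, beside 1.37% and 1.59% of all genes, with Foxp1 higher by 0.88 and Phactr1 by 0.75. The nuclei with neither receptor held 4267 ± 539 CPM of Phactr1 (SD, n = 5), below the Drd1 nuclei (5401 ± 387) and the Drd2 nuclei (8628 ± 1069). Their sum of interneuron markers was 161 ± 88.1 CPM against 16.7 ± 8.96 in the Drd2 nuclei, and that of CeA markers 503 ± 224 against 152 ± 25.6. They held 44.2 ± 17.2 CPM of Adora2a (SD, n = 5), 152 ± 37.1 of Penk and 107 ± 58.2 of Ebf1, and a mean of 1927 of Lingo2. When receptor classes were instead drawn at 2 or more UMIs, or after thinning to 4000 UMIs, 50 and 40 genes passed the test in place of 188, and without fasted replicate 2 it was 87. Over these, other choices and libraries left out in turn, 14 of the 40 named or listed genes that passed kept their call throughout.

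**Figure D3:**
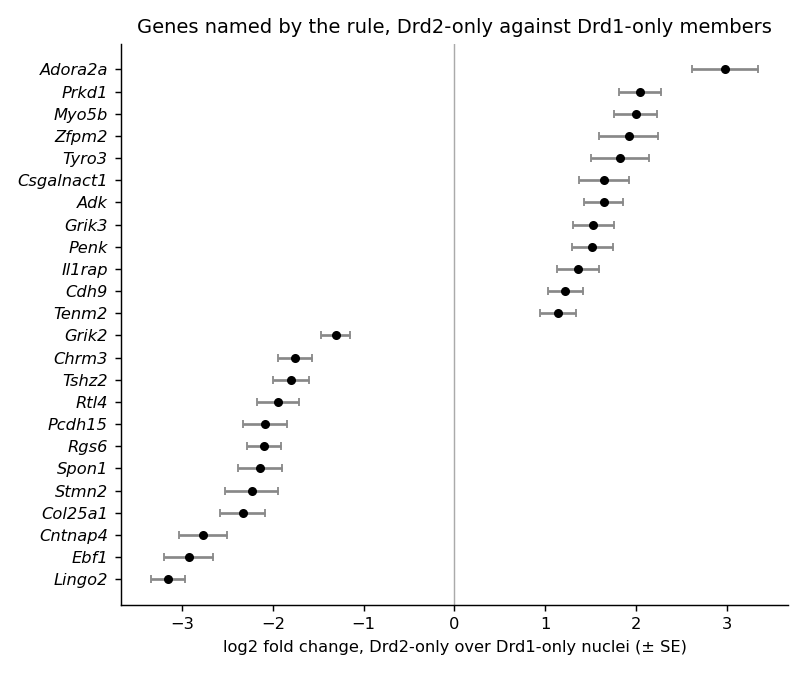
Log2 difference, Drd2 nuclei against Drd1 nuclei, of the 24 genes named by rule, with bars of 1 standard error derived from edgeR's test statistic. The genes higher in the Drd2 nuclei run from 1.14 (Tenm2) to 2.98 (Adora2a), and those lower from -1.31 (Grik2) to -3.16 (Lingo2).

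The members were not 1 uniform type. Clustered among themselves, without the gate genes, the receptors or any listed gene, they formed 8 clusters, each with at least 3 nuclei of every library. What follows describes the clusters, with no test. Clusters 1 to 4 held 656 of the members (72.7%) and 523 of the 567 Drd2 nuclei (92.2%). In each of them Drd2 was at 143 CPM or more, and in each of the others at 57.5 or less.

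Cluster 1, with 230 nuclei, was led by Tll2, Sox5, Ccdc88c and Gli3. It had the most Penk (418 CPM), Cdh9 (477), an adhesion molecule, and Calcrl (156) of the 8. Cluster 2, with 203 nuclei, was led by Cpne4, Synpo2, Ptpn14 and Slit2. It had less Drd2 (143 CPM) and less Phactr1 (3798) than clusters 1, 3 and 4, and more Grm8 (1573). Cluster 3, with 116 nuclei, was led by Syt10, Itgav and Slco5a1, with Adora2a at 139 CPM and Drd2 at 330. Cluster 4, with 107 nuclei, was led by Sema3e, Dach1 and Alk and held the estrogen receptor Esr1 among its leading genes. It had Drd2 at 319 CPM but little Penk (120) and Calcrl (12.0). Calcrl thus differed widely among the Drd2-rich clusters.

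The other 4 clusters had less Drd2, at 57.5 CPM or less. Cluster 5, with 93 nuclei, was led by Ebf1, Isl1, Kcnh8 and Tshz2, and held 22 of the 47 Drd1 nuclei (46.8%) and 5 of the Drd2 nuclei. Isl1 is a factor of direct pathway neurons, and Pdyn (27.2 CPM) and Tac1 (19.8) were highest here. Tafa1 (298 CPM, against 39.7 in the other members) and Il1rapl2 (230, against 19.5 to 28.4 in clusters 1 to 4) were high here too, and both, with Ebf1, mark a type of medial CeA neuron in the study. They were not particular to cluster 5, since cluster 6 held Il1rapl2 at 232 CPM and Tafa1 at 196, with Ebf1 at 86.2. Whether cluster 5 holds direct pathway or medial CeA neurons was not tested. Cluster 6, with 76 nuclei, was led by Adarb2, Rorb, Nfib and Erbb4, and held 7 of the 12 called doublets. Chst9 (79.7 CPM, against 6.24 in the other members) and the astrocyte marker Slc1a3 (111, against 12.2) were also among its leading genes, and its Tshz1 (113 CPM) and Foxp2 (201) were the highest of the 8 clusters. Cluster 7, with 53 nuclei, was led by Fbn2, Nr4a3, Egfem1 and Parm1, with Penk at 356 CPM, Adora2a at 76.2 and Drd2 at 40.4. Cluster 8, with 24 nuclei, was led by Sox6, Nos1, Sst and Npy. Its Sst (1091 CPM), Npy (529) and Lhx6 (215) made it interneuron-like by 3 listed markers, and Adora2a and Ppp1r1b had 0 UMIs in it, which allows up to 3.

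**Figure D4:**
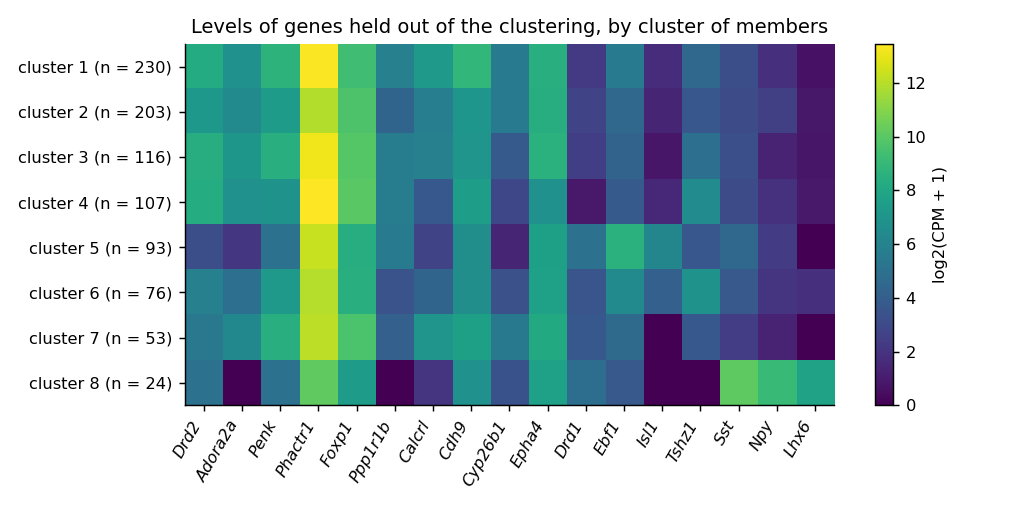
Heat map of the 8 clusters of members (rows) over selected genes (columns), as level in CPM of the summed UMIs on a log scale. The receptors and the listed genes took no part in the clustering. Drd2 is at 143 CPM or more in clusters 1 to 4 and 8.25 in cluster 5, where Ebf1 reaches 392, and Sst stands out in cluster 8 at 1091.

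Fasting was compared over the sums of the members in the 3 fed and 2 fasted libraries. Without regard to preparation, 0 of 10408 genes passed the test as higher (0%) and 0 as lower (0%), while 520 had an unadjusted p under 0.05 by edgeR's quasi-likelihood test. The likelihood ratio test called 49 and DESeq2 14. With the preparation batch as a block, 67 were higher (0.644%) and 18 lower (0.173%) in the fasted libraries. Of these 85, 35 were also called by the likelihood ratio test, 14 by DESeq2 and 15 when only the Drd2 nuclei were summed. In the 4 libraries of shared batches, without fed replicate 3, the blocked test called 70, of which 69 were among the 85. Fed replicate 3 was alone in its batch and so carried no weight in the blocked difference. This overlap was thus largely set by the design and is no separate check. Without fasted replicate 2 the test with no block called 55, where the single fasted library is assumed to vary like the fed ones. Groups that did not overlap in CPM were 9.84% of all genes for fasted higher and 8.39% for fasted lower, and 68 of the 85 were of this kind.

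Fkbp5 (chromosome 17, 28618058 to 28737521) codes for a chaperone partner of the glucocorticoid receptor and is induced by it. It stood at 44.2, 78.7 and 43.3 CPM in the fed and 130 and 154 in the fasted libraries, with no overlap. The log2 difference was 1.35 ± 0.23 (SE, adjusted p = 0.0918) without the block and 1.17 ± 0.16 (adjusted p = 2.47e-05) with it. Mt1, a metallothionein that glucocorticoids also induce, stood at 21.3, 3.22 and 6.50 against 66.5 and 58.6 CPM, a difference of 2.86 ± 0.41 (adjusted p = 0.0855) without the block and 2.63 ± 0.30 (adjusted p = 1.31e-06) with it. Of 11 tested glucocorticoid genes, 2 were higher with the block, Fkbp5 and Mt1, beside 0.644% of all genes, and 6 had fasted libraries above all fed ones, against a background of 9.84%. The median log2 difference of the list was 0.34, against -0.000597 over all genes tested. In the other sets Fkbp5 had log2 differences of 0.94, 1.11 and 1.12 in the Pde1c gate, the Foxp2 gate and the remaining nuclei, and the difference between the members and the remaining nuclei in this effect was 0.16 (adjusted p = 0.98).

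Another 4 genes, chosen after their values were seen, were higher in the fasted libraries with the block and did not pass without it. Pdzd2, a scaffold protein, stood at 717, 535 and 507 CPM in the fed and 1372 and 923 in the fasted libraries, 0.85 ± 0.12 higher on the log2 scale (SE, adjusted p = 6.45e-05 with the block and 0.127 without). Mgll, the enzyme that breaks down the cannabinoid 2-arachidonoylglycerol, stood at 150, 132 and 93.6 against 258 and 218 CPM (0.75 ± 0.13, adjusted p = 0.00109 with the block and 0.146 without). The orphan receptor Gpr83 stood at 58.1, 48.3 and 46.1 against 103 and 95.0 CPM (0.90 ± 0.15, adjusted p = 0.00109 with the block and 0.105 without), and Egfem1 at 340, 316 and 264 against 537 and 582 (0.77 ± 0.12, adjusted p = 0.000319 with the block and 0.0918 without). In these genes every fasted library lay above every fed library. Egfem1 is also a leading gene of cluster 7, at 2111 CPM against 303 in the other members. That cluster held 10, 7 and 11 nuclei of the fed and 13 and 12 of the fasted libraries. Its part in the Egfem1 difference was not tested.

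Cyp26b1 fell with the block. Its fed libraries, at 40.9, 45.6 and 35.1 CPM, lay above the fasted ones at 22.7 and 12.5, a log2 difference of -1.25 ± 0.28 (SE, adjusted p = 0.189) without the block and -1.41 ± 0.24 (adjusted p = 0.00109) with it. The likelihood ratio test gave an adjusted p of 0.00659 and DESeq2 0.138. In the remaining nuclei the difference was -0.94 (adjusted p = 0.228), and the effect in the members was lower than that by -0.35 (adjusted p = 0.972). Of 8 tested retinoid genes it was the only one called with the block, beside 0.173% of all genes called lower, and 3 had fasted libraries below all fed ones, beside 8.39% of all genes, with a median of -0.27. Cpne4, which led cluster 2, was lower too, at 239, 278 and 299.7 against 193 and 100 CPM (-0.92 ± 0.17, adjusted p = 0.002 with the block). Cluster 2 held 35, 26 and 67 nuclei of the fed and 58 and 17 of the fasted libraries. Cyp26b1 was at 47.5 CPM in cluster 1, 47.1 in cluster 2 and 41.9 in cluster 7, and at 13.2 or less in the others. The part of cluster shares in these differences was not tested.

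Some ribosomal protein genes were also higher. Of 86 tested Rpl and Rps genes 15 were higher with the block and 0 lower, beside 0.644% and 0.173% of all genes, and their sum over the members was 2888, 2284 and 2358 CPM in the fed and 3873 and 3161 in the fasted libraries. The remaining nuclei gave 2916, 2190 and 2503 against 3871 and 3813 CPM. Of the listed glial markers, 0 of 3 tested oligodendrocyte genes were called with the block, and the 1 tested astrocyte gene, Slc1a3, was called higher with it although its fed and fasted libraries overlapped (18.8, 4.60 and 28.3 against 21.1 and 30.5 CPM). Apoe, Aldoc, Cst3 and Glul, which are abundant in astrocytes and were chosen after their values were seen, were higher with the block, such as Apoe at 32.7, 15.6 and 24.6 against 55.4 and 53.1 CPM (1.27 ± 0.22, adjusted p = 0.00109 with the block). The mitochondrial share of the members was also higher in the fasted libraries, as given above, and the sum of astrocyte markers was lowest in fed replicate 2. Their part in the fasting differences was not tested.

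Drd2, Penk and the lists of striatal projection neuron and clock genes did not pass the test in the fast, whereas Cyp26b1 passed it with the block, as given above. Drd2, at the levels given above, had a log2 difference of -0.00376 ± 0.18 (SE, adjusted p = 0.999), and Penk stood at 244, 217 and 259 against 304 and 228 CPM. Of 19 striatal projection neuron genes and 18 clock genes, 0 were called with or without the block. Over all genes, 0.644% were called higher and 0.173% lower with the block, so a count of 0 does not set these lists apart. Fed and fasted libraries did not overlap for 1 projection neuron gene as fasted higher and 2 as fasted lower. For clock genes this was 3 and 1, beside 9.84% and 8.39% of all genes. Of 13 immediate-early genes, the transcripts that rise within minutes of neuronal activity, 0 were called, and none had groups that did not overlap. These counts stand beside the same shares of all genes, 0.644% and 0.173% called with the block and 9.84% and 8.39% without overlap. Fos stood at 6.54, 7.82 and 3.96 against 2.22 and 4.91 CPM. At this depth the ghrelin receptor gene Ghsr had 0 UMIs in the members of every library, which allows up to 3 UMIs over the group.

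**Figure D5:**
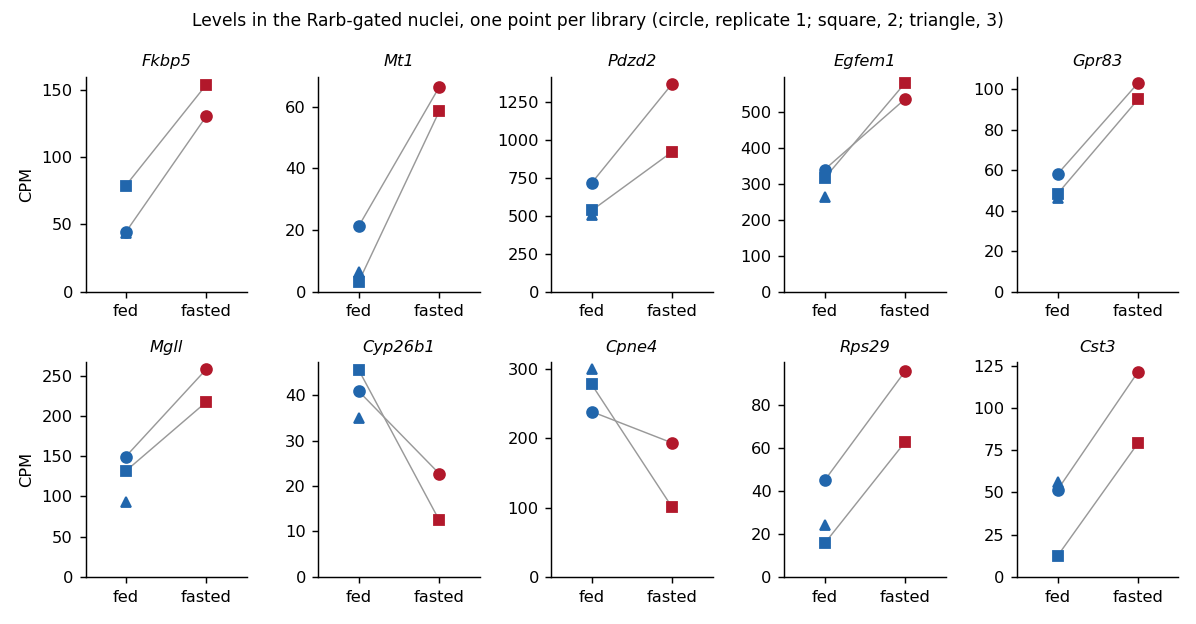
Level in CPM of 10 genes summed over the members of each library, fed on the left and fasted on the right, with lines that join libraries prepared together. Fkbp5 rises from 44.2 to 130 and from 78.7 to 154 along these lines, and Cyp26b1 falls from 40.9 to 22.7 and from 45.6 to 12.5.

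The fasting difference of the Drd2 nuclei was tested against that of the Drd1 nuclei. Of 7551 genes, 3 had a larger difference in the Drd2 nuclei (0.0397%) and 2 a smaller one (0.0265%) by edgeR, and DESeq2 called 0. The Drd1 sums behind them came from as few as 3 nuclei, in fasted replicate 1. Fkbp5 stood at 43.8, 80.9 and 44.1 against 141 and 162 CPM in the Drd2 nuclei, and at 56.0, 8.70 and 37.5 against 78.6 and 107 in the Drd1 nuclei. On simulated counts this test found 24 of 70 genes changed 4-fold, 1 of 59 changed 2-fold and 0 of 71 changed 1.5-fold. At 47 Drd1 nuclei most differences of 4-fold or less in the response to a fast were thus not detectable.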

How the data were processed

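Nuclei were sequenced as 3′ droplet libraries. The authors deposited UMI counts per gene and barcode, made with intronic reads included and used here as deposited for 22532 genes. The file headers and the methods name Cell Ranger 5.0.0, and the methods GRCm39 with Cre and mCherry added. The submitters' processing notes name Cell Ranger 2.1.1 and mm10. Gene positions are from the annotation of GRCm39 supplied with the data.

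The members and gene lists were chosen with earlier results of these data known. UMIs were summed per library and set of nuclei, and tested with edgeR 4.0.16 (quasi-likelihood, TMM, filterByExpr, R 4.3.3) at a Benjamini-Hochberg adjusted p of 0.05 over all genes tested. Comparisons within libraries had the library as a block. Member sums held 1223072, 2172800 and 3536795 UMIs in the fed and 1804208 and 3052104 in the fasted libraries. CPM are UMIs in 1e+06 of the sum. The SE of a log2 difference was derived as its absolute value divided by the square root of edgeR's test statistic. Each library pools 2 mice, so p-values measure the spread between pools. With the block, only the pairs of libraries prepared together carry the fasting difference. The blocked p-values thus rest largely on the variance that edgeR shares across genes, and little on a measured spread between pools. Intervals and floors (3 UMIs) cover counting error only.

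The study prepared its fed and fasted libraries numbered 1 together, and those numbered 2 together. It names a further fed library as another batch. Its numbers were taken here as the replicate numbers, and fed replicate 3, by elimination, as the further library. On this reading the numbers pair libraries. As a check, deviations from group means of log2(CPM + 5) over 10408 genes had r = 0.239 and 0.422 for same-numbered libraries, and crossed pairs of libraries 1 and 2 have the opposite sign by construction. Fed replicate 3 and fasted replicate 1, which share no batch, had r = 0.223. The study tested sums with edgeR's likelihood ratio test, an alternative here, as were DESeq2 1.42.0, other scaling, no filter, stricter gates, depth limits, removal of Scrublet doublets (scanpy 1.11.5), and each library left out.

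Named genes were those called with the smallest adjusted p and the same direction in all 5 libraries (12 a direction for receptor classes, 8 for gates), and all listed genes. With no gene called without the block, the genes named for the fast were chosen after their values were seen. Members were clustered on 15 components of 1000 variable genes, centred per library, with 20 neighbours and the Leiden method (leidenalg 0.10.2, resolution 0.6). Simulated counts were run first for fasting without the block, Drd2 against Drd1 nuclei, their difference in the fast, and members against the remaining nuclei. The blocked test and the comparisons with the Pde1c and Foxp2 gates were not simulated.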

Additional observations from a re-analysis of the deposited data

Results flagged for a closer look

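The fasting effect differed between Drd2 and Drd1 nuclei for 5 genes by the test of the difference itself. On the log2 scale the effect in the Drd2 nuclei minus that in the Drd1 nuclei was 3.56 for Nxph1 (adjusted p = 0.000292), 2.44 for Plcl1 (adjusted p = 0.00785), 3.72 for Parm1 (adjusted p = 0.00785), -2.92 for Reln (adjusted p = 0.00785) and -3.27 for Ubash3b (adjusted p = 0.0219), all by edgeR. Nxph1, which codes for a ligand of neurexins, stood at 13.7, 9.36 and 23.9 CPM in the fed and 19.1 and 49.9 in the fasted libraries of the Drd2 nuclei. In the Drd1 nuclei it was at 0, 0 and 450 CPM in the fed and 0 and 36.8 in the fasted libraries, so that fed replicate 3 alone held the high value. Nxph1 is also a leading gene of the interneuron-like cluster 8, at 1981 CPM against 43.3 in the other members, and that cluster holds 4 of the 47 Drd1 nuclei. The sum of the interneuron markers in the Drd1 nuclei was 0, 17.4 and 252 CPM in the fed and 0 and 309 in the fasted libraries, and its part in the difference was not tested. Reln, the reelin gene, stood at 18.7, 8.70 and 37.5 CPM in the fed and 78.6 and 153 in the fasted Drd1 nuclei. The Drd1 sums rest on 3 to 15 nuclei a library, and DESeq2 called none of the 5. Without fed replicate 3 the value of Nxph1 was -5.41, and without fasted replicate 2 that of Ubash3b was 5.70.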

How the results depend on the processing

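The fasting count of 0 became 49 with the likelihood ratio test, 14 with DESeq2, 102 with no filter on low counts, 11 with Rarb at least 10 per 10000, 1 without doublets and 85 with the replicate block. Settings added after seeing the data gave 15 for Drd2 nuclei alone and 70 for the block in the 4 libraries of shared batches. The latter rests on the same pairs of libraries as the block over all libraries, so it is no separate check. Leaving out 1 library gave 0 to 55, the highest without fasted replicate 2, where the lone fasted library is assumed to vary like the fed ones. The count for Drd2 against Drd1 nuclei (188) became 355 with no filter, 50 with classes at 2 or more UMIs, 40 after thinning, and 87 to 221 with a library left out, the lowest without fasted replicate 2. The 5 genes flagged became 0 with DESeq2 and 3 to 15 with a library left out, the highest without fasted replicate 2. Against the Pde1c gate the count (1382) was 765 without the replicate block and 960 to 1265 with a library left out, and against the remaining nuclei (2755) it was 1518 and 2258 to 2426. Against the Foxp2 gate (2446) it was 1945 to 2350. The fasted minus fed share of members (-1.58 percentage points) ranged from -5.58 to 2.42, reversed without fasted replicate 2. That of Drd2 nuclei (0.957) became -1.36 at the stricter Rarb limit and -0.750 after thinning, and ranged from -4.91 to 6.82. Among single genes the sign turned for Slc1a3 in the fast without doublets (-0.00314), Pcdh15 with classes at 2 or more UMIs (0.42), and, with a library left out, Nxph1 (-5.41 without fed replicate 3, to 9.95) and Ubash3b (-4.54 to 5.70, without fasted replicate 2). The causes were not tested. Of the named or listed genes called, 109 of 150 kept their call in every setting against the remaining nuclei, 88 of 122 against the Foxp2 gate and 53 of 100 against the Pde1c gate. The smallest sum tested, Drd1 nuclei of fasted replicate 1, held 25443 UMIs.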

Other observations

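Fed replicate 3 carried the Cre-dependent mCherry, and the Rarb neurons held its transcript. In that library 62 of 236 members (26.3%) had an mCherry UMI, 353 UMIs in all, at a median depth of 13486 UMIs. The share was 27.0% of 111 nuclei in the Pde1c gate, 16.3% of 86 in the Foxp2 gate and 36.0% of 883 remaining nuclei, at median depths of 12730, 11526 and 14993 UMIs. The other 4 libraries held 0 mCherry UMIs. What part of these shares is free RNA was not tested.

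Among the members, the genes whose counts varied most over nuclei beyond counting error were Sst, Nos1 and Sox6. Sst, the somatostatin gene, had a UMI in 12.1% of the members, Nos1, a nitric oxide synthase, in 10.4% and Sox6, a factor of interneurons, in 16.2%. All 3 were among the leading genes of the interneuron-like cluster of 24 nuclei.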
